A study of Mus musculus with 2 samples.

Results

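Tight junctions close the gap between neighbouring cells of a sheet, and in the eye they build the blood-retina barrier. The outer part of that barrier lies between the cells of the retinal pigment epithelium (RPE), and the inner part lies between the endothelial cells of the retinal vessels. Claudins are the membrane proteins that set what passes through the junction. Some of them seal it and others form pores for ions, while occludin (Ocln) is a second kind of junction membrane protein and ZO-1 (Tjp1) is the scaffold that ties them to actin. The genes described here are 9 of the 31053 genes counted, taken by symbol: Cldn1, Cldn2, Cldn3, Cldn5, Cldn10, Cldn12, Cldn19, Ocln and Tjp1. All 9 were found in the gene list of both libraries.

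The data are single-cell transcript counts of mouse eye cups taken at postnatal day 0. One library came from 3 pooled Myrf fl/fl eye cups (control) and the other from a pool of 3 eye cups of genotype Rx>cre Myrf fl/fl (mutant), so both carry the floxed Myrf alleles and only the mutant carries the cre transgene. Myrf codes for a transcription factor made as a membrane protein. The Rx>cre driver deletes it in the early eye field, which gives rise to the RPE and the neural retina but not to vessels or surface epithelium. With 1 library per genotype there was no replicate check, no test was possible, and every difference given here is a difference between 2 libraries. Levels are UMIs (single captured transcripts) given as CPM, counts per 1000000 UMIs of the same class and library. Intervals are 95% intervals that cover counting error only.

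There were 14305 barcodes and 79017429 UMIs in the control library, and 12222 barcodes and 76272867 UMIs in the mutant library, of which 12485 and 10813 cells were kept. The libraries share 59 barcodes. Cell classes were rebuilt from marker genes, so each is called by the type its markers resemble. RPE-like cells numbered 491 in the control and 201 in the mutant, endothelial-like cells 425 and 167, surface epithelium-like cells 135 and 67, and cells of the neural retina classes 5774 and 6765. Cells of the control were shallower in the RPE-like class, with a median of 2449 UMIs against 10602 in the mutant, and in the endothelial-like class, with 4618 against 9074. Mesenchyme transcripts were more common in these classes of the control. Summed mesenchyme markers stood at 2416 CPM in control and 324 CPM in mutant RPE-like cells, at 1377 and 180 CPM in endothelial-like cells, and at 4270 and 170 CPM in surface epithelium-like cells. The pools also differed in sex. Of cells with either Xist or a Y-linked UMI but not both, 12.2% held Xist in the control and 83.4% in the mutant. The mix differed by class. In the control, 82 RPE-like cells held Xist and 127 a Y-linked UMI, against 120 and 3393 cells of the neural retina classes. In the mutant these were 79 and 36 RPE-like cells, against 5032 and 885.

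Myrf itself, the check of the labels, gave 743 UMIs among RPE-like cells of the control and 64 among those of the mutant. That is 230.4 CPM against 26.9 CPM, a log2 ratio of -3.05 with an interval from -3.49 to -2.73. All 12 RPE markers had UMIs in the control class, and in the mutant class Rpe65, the retinoid isomerase, was the only one at 0. The summed level of these markers was 32090 CPM in control and 21103 CPM in mutant cells. The class was named from these same markers, so they are no independent check of its identity. Pax3, which marks melanocytes, was at 0 in RPE-like cells of both libraries.

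The classes differed in their leading tight junction genes, and some genes were shared between classes. Cldn1, a sealing claudin of many epithelia, was highest in RPE-like cells of the control at 198 CPM, followed by surface epithelium-like cells at 102 CPM, and the remaining classes were at 14.2 CPM or less. In the mutant the same classes led at 125 and 118 CPM, and their intervals overlapped. Cldn2, which forms a pore for cations and water, was found mostly in RPE-like cells, which held 88.4% (control) and 88.1% (mutant) of its UMIs. Cldn10, whose isoforms form ion pores, was highest among named classes in RPE-like cells at 88.7 and 78.3 CPM, ahead of astrocyte-like cells at 38.4 and 40.2 CPM. Cldn3, a sealing claudin of simple epithelia, was led by surface epithelium-like cells, with 62.6% (control) and 81.2% (mutant) of its UMIs. Cldn5, the main claudin of endothelium, was led by endothelial-like cells at 1826 and 1613 CPM, with amacrine-like cells second at 481 and 410 CPM.

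The other members were low or spread over many classes. Ocln was found mainly in surface epithelium-like, RPE-like and endothelial-like cells, at 20.8, 13.3 and 8.95 CPM in the control and 29.9, 13.9 and 4.79 CPM in the mutant. Surface epithelium-like and RPE-like cells overlapped in both libraries, and RPE-like and endothelial-like cells overlapped in the control only. Tjp1 had UMIs in every class and was highest in endothelial-like cells at 172 and 233 CPM, overlapping glia-like cells (21 and 20 cells) at 132 and 135 CPM. Cldn12, an atypical claudin, was at most 14.3 CPM in any class, and its leading classes, RPE-like and photoreceptor-like, overlapped in both libraries. Cldn19, a claudin whose human variants cause a kidney disorder with eye involvement, was highest in astrocyte-like cells at 21.6 and 59.5 CPM. RPE-like cells came second for Cldn19, at 6.20 and 1.26 CPM.

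**Figure D1:**
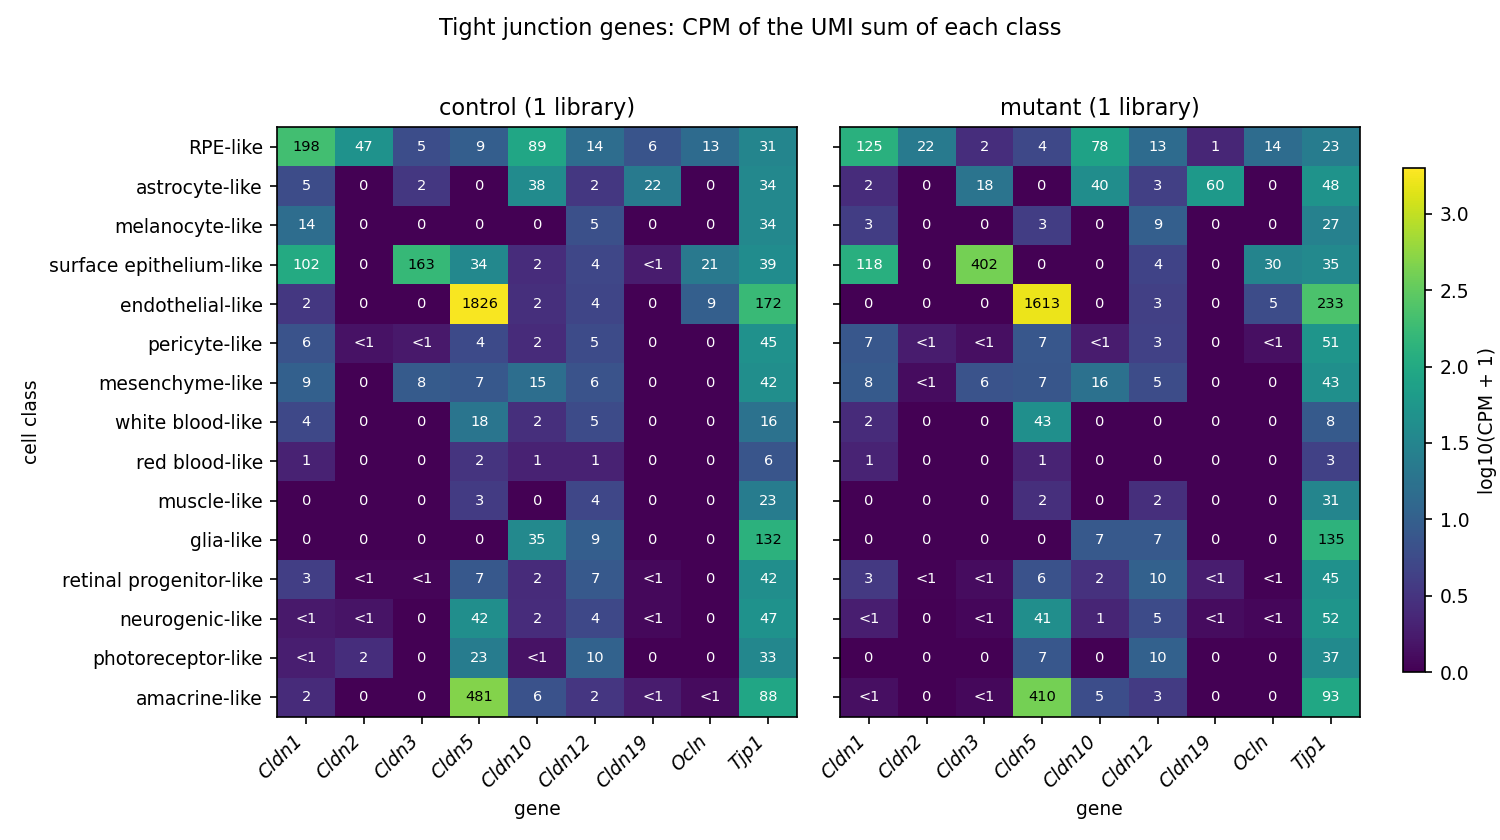
Level of the 9 tight junction genes (columns) in each named cell class (rows), as CPM of the class sum written in each cell and as log10(CPM + 1) in colour, for the control library and the mutant library. Cldn1, Cldn2 and Cldn10 stand out in the RPE-like row, Cldn3 in the surface epithelium-like row, and Cldn5 in the endothelial-like and amacrine-like rows.

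The first comparison asks which of these genes differ in RPE-like cells between the libraries. Cldn1 and Cldn2 were lower in the mutant. Cldn10, the other main claudin of these cells, Cldn12, Ocln and Tjp1 had intervals that included no difference. A gene was called when its ratio was past 1.5-fold and its counting interval left out 1, among genes with a mean of at least 10 CPM. Of the 9 members 6 reached that level, 2 of them were called lower and 0 higher. Of all 8531 genes tested in this class, 9.17% were called lower and 5.33% higher. The members were chosen with earlier results of these data known, so their count only describes them. The median log2 ratio was -0.66 over the 9 members and -0.29 over the 6 tested, against -0.00 over all genes tested.

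Cldn1 gave 638 UMIs in the 491 control cells and 296 UMIs in the 201 mutant cells. Its level was 198 CPM (interval 183 to 214) in control cells and 125 CPM (111 to 140) in mutant cells, which did not overlap. The control was 1.59-fold above the mutant, a log2 ratio of -0.66 with an interval from -0.87 to -0.47. The gene (ENSMUSG00000022512) lies at chr16:26356642-26371841 on the minus strand of GRCm38.

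Cldn2 gave 152 UMIs in control and 52 UMIs in mutant cells. Its level was 47.1 CPM (39.9 to 55.2) against 21.9 CPM (16.4 to 28.7), again without overlap. This was a 2.15-fold difference and a log2 ratio of -1.07, with an interval from -1.59 to -0.64. The gene (ENSMUSG00000047230) lies on the X chromosome, at chrX:139800828-139811386 on the plus strand.

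Cldn10 gave 286 and 186 UMIs, or 88.7 CPM (78.7 to 99.6) in the control and 78.3 CPM (67.5 to 90.4) in the mutant. These intervals overlapped, and the log2 ratio was -0.18 with an interval from -0.45 to 0.09. The gene (ENSMUSG00000022132) spans chr14:118787908-118875489 on the plus strand and has alternative start sites, which counts of 3′ ends do not tell apart.

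Upstream sequences of these claudins are shown because Cldn1 and Cldn2 were lower together and Cldn10 was not called. Each runs over the 250 bases before a RefSeq start site in GRCm38.p6, 5′ to 3′ on the strand of the gene. Capitals mark exact matches, on either strand, to 8 short motifs. The E-box of the kind MITF binds was searched as CACGTG and in a second form as CATGTG. The OTX2 motif was searched as TAATCC, the MYRF motif as CTGGCAC and in a second form as CTGGTAC. General promoter elements were the TATA box (TATAAA), the CCAAT box and the GC box (GGGCGG).

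Cldn1, chr16:26371840-26372089, minus strand: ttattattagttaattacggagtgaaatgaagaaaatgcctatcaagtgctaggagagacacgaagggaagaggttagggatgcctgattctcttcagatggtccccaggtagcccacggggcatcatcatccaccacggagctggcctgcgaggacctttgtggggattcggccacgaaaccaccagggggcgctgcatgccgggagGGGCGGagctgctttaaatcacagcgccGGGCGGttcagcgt

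Cldn2, chrX:139800558-139800807, plus strand: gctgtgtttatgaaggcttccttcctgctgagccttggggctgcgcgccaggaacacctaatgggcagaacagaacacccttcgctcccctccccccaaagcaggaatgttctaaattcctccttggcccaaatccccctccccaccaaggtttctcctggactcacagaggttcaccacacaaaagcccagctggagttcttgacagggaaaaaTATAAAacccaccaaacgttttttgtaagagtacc

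Cldn10, upstream start, chr14:118787621-118787870, plus strand: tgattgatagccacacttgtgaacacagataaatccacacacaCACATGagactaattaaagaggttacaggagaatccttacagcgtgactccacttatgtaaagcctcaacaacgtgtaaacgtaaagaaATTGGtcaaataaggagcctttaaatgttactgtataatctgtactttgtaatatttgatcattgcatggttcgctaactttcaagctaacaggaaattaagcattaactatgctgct

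Cldn10, downstream start, chr14:118854700-118854949, plus strand: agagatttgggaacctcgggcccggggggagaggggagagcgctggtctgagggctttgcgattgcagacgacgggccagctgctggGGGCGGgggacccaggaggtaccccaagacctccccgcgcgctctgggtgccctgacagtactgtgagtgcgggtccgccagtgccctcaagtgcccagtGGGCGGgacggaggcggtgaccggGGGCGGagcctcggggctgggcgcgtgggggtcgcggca

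The Cldn2 sequence held a TATA box that began 35 bases before the start site and no GC box. TATAAA is present in 12.4% of the 32851 promoters in the table. Cldn1 held 2 copies of GGGCGG, which is present in 32.7% of all promoters. The upstream Cldn10 start was poor in G and C, with a GC content of 36% against a median of 52.4% over all promoters, and held 1 match to CATGTG, a motif present in 12.3% of promoters. The downstream Cldn10 start had a GC content of 72.4% and 3 copies of GGGCGG. None of the 14 start sites of the 9 members held the first form of the E-box, the OTX2 motif or either form of the MYRF motif, which are present in 6.02%, 6.25%, 4.19% and 1.83% of promoters. A match or its absence describes these letters in this window and says nothing on binding.

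Depth differed between the RPE-like cells of both libraries, so the same genes were compared among deep cells alone. Over 8000 UMIs per cell there were 152 control and 115 mutant cells. In these, Cldn1 was at 219 CPM in control and 131 CPM in mutant cells, a log2 ratio of -0.74 (interval -0.96 to -0.53). Cldn2 was at 49.8 and 23.4 CPM there, a log2 ratio of -1.06 (-1.59 to -0.60), and Cldn10 at 97.6 and 82.5 CPM (-0.24, interval -0.53 to 0.04). Markers of the RPE stood lower beside them in these deep cells, with log2 ratios of -2.31 for Ttr, the carrier of thyroid hormone and retinol, and -0.64 for the pigment gene Tyrp1. The part of this change in the claudin values was not tested. In shallower cells the ratios of Cldn1 and Cldn2 were also negative, with intervals that included no difference. Cldn1 gave 54 UMIs in 296 control and 6 UMIs in 61 mutant cells of up to 4000 UMIs (log2 ratio -0.89, interval -2.41 to 0.31), and Cldn2 gave 16 and 0. Cldn10 gave 25 and 8 UMIs there, with a log2 ratio of 0.62 (interval -0.73 to 1.82), opposite in sign to that of the whole class. At intermediate depth, over 4000 and up to 8000 UMIs, 43 control and 25 mutant cells held 34 and 11 UMIs of Cldn1 (log2 ratio -0.83, interval -1.96 to 0.18), 11 and 2 of Cldn2 (-1.60, interval -4.88 to 0.53), and 16 and 2 of Cldn10. The Cldn10 ratio there was -2.13 (interval -5.37 to -0.12), below the value in the deeper cells, whose interval it overlapped.

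The share of cells with each transcript depended on depth. In all RPE-like cells without thinning, 39.5% of control and 41.8% of mutant cells held a Cldn1 UMI, and 16.9% and 16.4% held a Cldn2 UMI. After each cell was thinned to 1000 UMIs, leaving 390 control and 177 mutant cells, Cldn1 was in 12.3% and 7.34% of cells and Cldn2 in 4.87% and 0.565%. The Cldn1 intervals, 9.22% to 16.0% and 3.97% to 12.2%, overlapped, and the Cldn2 value in the mutant rests on 1 cell. Thinning left 68 and 20 UMIs of Cldn1 and 12 and 1 of Cldn2, and at that depth neither gene met the rule for a call (log2 ratios -0.62, interval -1.42 to 0.11, and -2.26, interval -7.86 to 0.31). Photoreceptor-like cells, which should lack both, held neither in 658 control and 767 mutant thinned cells, with median depths of 2900 and 3269 UMIs before thinning. Single cells often carried several of these claudins. Among cells over 8000 UMIs, 47 of 152 control cells and 15 of 115 mutant cells held UMIs of Cldn1, Cldn2 and Cldn10 together, while 16 and 23 held none of the 3.

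Cells from animals of each sex within a pool could be told apart in part, which gave a coarse view of the spread inside each library. Control cells with Xist (82 cells) had Cldn1 at 234 CPM and those with a Y-linked UMI (127 cells) at 204 CPM. Mutant cells with Xist (79 cells) had it at 123 CPM and those with a Y-linked UMI (36 cells) at 143 CPM. Both control values lay above both mutant values. Cldn2, the X-linked member, stood at 58.5 CPM in control cells with Xist and 47.4 CPM in those with a Y-linked UMI. In the mutant the corresponding values were 22.6 and 12.3 CPM, the last from 6 UMIs. Both subsets of the control were again above both subsets of the mutant.

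**Figure D2:**
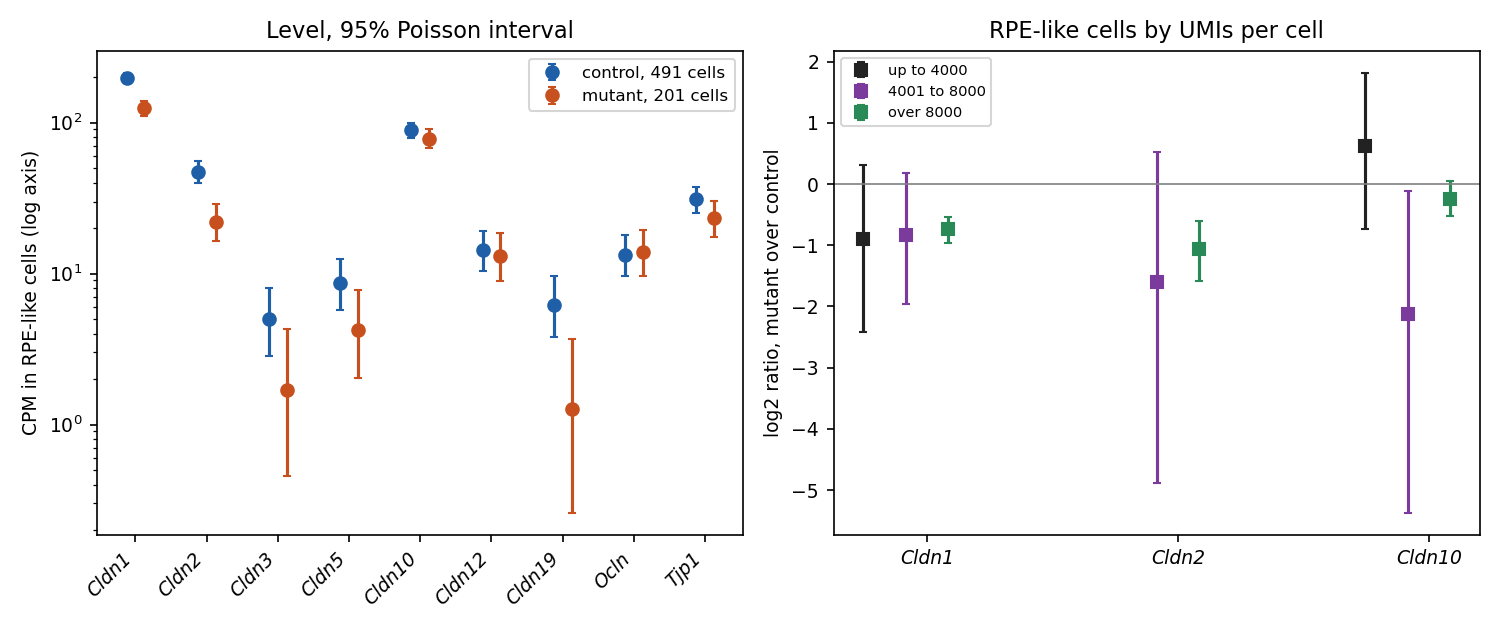
Left, CPM of each tight junction gene in RPE-like cells on a log axis, with 95% Poisson intervals, for 491 control and 201 mutant cells. Right, log2 ratio of mutant over control for Cldn1, Cldn2 and Cldn10 in cells of up to 4000, over 4000 to 8000 and over 8000 UMIs, with 95% counting intervals (Cldn2 in the shallowest cells is left out, with 0 UMIs in the mutant). Cldn1 and Cldn2 lie below 0 in the deepest cells, and the interval of Cldn10 there reaches 0.

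The remaining members were sparse in RPE-like cells. Tjp1 gave 100 and 55 UMIs, at 31.0 CPM (25.2 to 37.7) and 23.2 CPM (17.4 to 30.1), which overlapped. Ocln gave 43 and 33 UMIs (13.3 and 13.9 CPM, log2 ratio 0.06, interval -0.64 to 0.75). Cldn12 gave 46 and 31 UMIs (14.3 and 13.1 CPM, log2 ratio -0.12, interval -0.83 to 0.56). The interval of Ocln reaches past 1.5-fold in either direction, and that of Cldn12 reaches past it for a lower level only. Cldn19 was under the level of 10 CPM, with 20 UMIs from 11 control cells and 3 UMIs from 3 mutant cells. Its log2 ratio was -1.67 with an interval from -4.69 to -0.54, and up to 5 of the control UMIs came from 1 cell. By sex of the cells its direction was not the same. Cells with Xist held 0 UMIs (control) and 2 UMIs (mutant), a log2 ratio of 1.25, while cells with a Y-linked UMI held 14 and 0. Cldn3 gave 16 and 4 UMIs and Cldn5 gave 28 and 10, both with intervals that included no difference. Cldn5 moved in the same direction as the summed endothelial markers of the class, which stood at 365 CPM in control and 54.3 CPM in mutant cells. The part of those markers in the Cldn5 value was not tested.

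Other components of tight junctions and of apical polarity were counted from a list of 54 genes, of which 53 were in the gene list and 29 passed the level of 10 CPM in RPE-like cells. Of these 6 were called lower and 4 higher (20.7% and 13.8%, against 9.17% and 5.33% of all genes tested in the class), and the median log2 ratio was -0.04. This list and the barrier vessel list used below were chosen with earlier results of these data known, so their shares only describe them. The lower genes included cytoplasmic scaffolds. Mpp5, the Pals1 scaffold of the Crumbs complex, went from 44.96 to 22.7 CPM (log2 ratio -0.95). Arhgef18, a guanine nucleotide exchange factor gene and one of the disease genes the study listed from these libraries, went from 102 to 48.8 CPM (-1.05). Tjap1 (-0.78), the atypical kinase gene Prkcz (-0.83) and the multi-PDZ scaffold gene Mpdz (-0.77) were also lower.

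Some scaffolds differed the other way. Cgnl1, which encodes paracingulin, went from 9.30 to 21.5 CPM (log2 ratio 1.13). Magi1 went from 11.8 to 25.3 CPM (1.04) and Magi3 from 18.3 to 29.9 CPM (0.68). Cldn34c1, a claudin, went from 18.3 to 32.4 CPM (0.79). The list thus held calls in both directions.

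RPE-like cells also carried transporters and receptors best known from barrier vessels. Of a list of 16 barrier vessel genes, 6 passed the level in this class, 5 were called lower and 0 higher, against 9.17% and 5.33% of all genes tested in the class. Summed endothelial markers were also lower in the mutant class, at 54.3 CPM against 365 CPM, and their part in these values was not tested. These were named after their values were seen. Slc7a5, a carrier of large neutral amino acids, stood at 239 CPM in control and 76.6 CPM in mutant cells (log2 ratio -1.63). Fzd4, a Wnt and norrin receptor, stood at 98.6 and 35.8 CPM (-1.44). Mfsd2a, a lysolipid carrier, stood at 65.7 and 25.7 CPM (-1.32), Slco1a4 at 100.1 and 51.4 CPM (-0.95) and Slco1c1 at 19.2 and 2.53 CPM (-2.52).

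Vessels were the second site compared, because they form the inner barrier and do not arise from cells in which Rx>cre acts. The endothelial-like class was named from 12 endothelial markers, so they are no independent check of its identity. All 12 also had UMIs in the neural retina classes, at summed levels of 217 CPM (control) and 205 CPM (mutant). In endothelial-like cells all 12 had UMIs in both libraries and summed to 9725 and 10895 CPM. Cldn5 and Tjp1 were the only members that passed the level of 10 CPM there, and neither was called, against 3.58% of 8466 genes called lower and 1.98% called higher. Cldn2, Cldn3 and Cldn19 had 0 UMIs in endothelial-like cells of both libraries. Cldn1 (8 and 0 UMIs), Cldn10 (6 and 0) and Cldn12 (13 and 6) were near the limit of detection.

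Cldn5 (ENSMUSG00000041378, chr16:18776847-18778262, plus strand) gave 6119 UMIs in control and 3030 UMIs in mutant cells. The levels were 1826 CPM (1780 to 1872) and 1613 CPM (1556 to 1672), a log2 ratio of -0.18 with an interval from -0.24 to -0.12. The counting intervals did not overlap, but cells of either sex within the control differed by more. Control cells with Xist (63 cells) had Cldn5 at 1169 CPM and control cells with a Y-linked UMI (188 cells) at 2094 CPM. The mutant values, 1672 CPM with Xist (90 cells) and 1429 CPM with a Y-linked UMI (33 cells), lay between them. The log2 ratio was 0.52 among cells with Xist and -0.55 among cells with a Y-linked UMI, so its sign depended on which cells were taken.

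Tjp1 (ENSMUSG00000030516, chr7:65296165-65527781, minus strand) gave 578 and 437 UMIs in endothelial-like cells. Its level was 172 CPM (159 to 187) in control cells and 233 CPM (211 to 256) in mutant cells, a log2 ratio of 0.43 with an interval from 0.25 to 0.61, below the limit of 1.5-fold. Of the mutant UMIs 55 came from 1 cell. By sex of the cells, control subsets were at 115 and 190 CPM and mutant subsets at 242 and 170 CPM, so the subsets of both libraries overlapped in range. Ocln gave 30 and 9 UMIs, at 8.95 and 4.79 CPM, with a counting interval of -2.16 to 0.21 around the log2 ratio. A difference was not detectable at this depth.

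Vessels of the retina and of the choroid differ in their junctions, and the choroidal capillaries are fenestrated and marked by Plvap. A Plvap UMI was found in 77.9% of control and 87.4% of mutant endothelial-like cells. Cells were therefore also split by a UMI of any of 7 genes of barrier vessels, among them Mfsd2a, Slco1c1 and Lef1, found in 27.3% of control and 43.7% of mutant cells. Such a split is a range rather than a type, and it takes deeper cells, with medians of 10511 UMIs against 2803 in the control and 11268 against 6956.5 in the mutant.

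By Plvap, Cldn5 stood at 1816 CPM with and 1924 CPM without a UMI in the control, with intervals that overlapped. The mutant values were 1668 and 771 CPM, the last from 88 UMIs in 21 cells. By barrier genes, Cldn5 in the control stood at 2405 CPM in cells with such a UMI and 1323 CPM in cells without one. In the mutant the levels were 1623 and 1600 CPM. The intervals lay apart in the control (2328 to 2483 and 1271 to 1378) and overlapped in the mutant. The genes that define the split differed between the libraries themselves, with 118 and 8 UMIs of Mfsd2a, 17 and 0 of Slco1c1 and 94 and 26 of Lef1. The split therefore takes different cells in each library, and its values are a description of those cells and no comparison of genotypes. The 13 control cells with a barrier gene UMI and no Plvap UMI were highest, at 3628 CPM of Cldn5, and the 4 such mutant cells were at 428 CPM from 14 UMIs. Ocln was at 14.8 CPM (9.36 to 22.2) with and 3.90 CPM (1.57 to 8.04) without a barrier gene UMI in the control. In the mutant it was at 7.13 and 1.32 CPM, from 8 UMIs and 1 UMI, and the intervals overlapped. For Tjp1 the pair was 212 and 138 CPM in control cells, against 254 and 201 CPM in mutant cells.

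**Figure D3:**
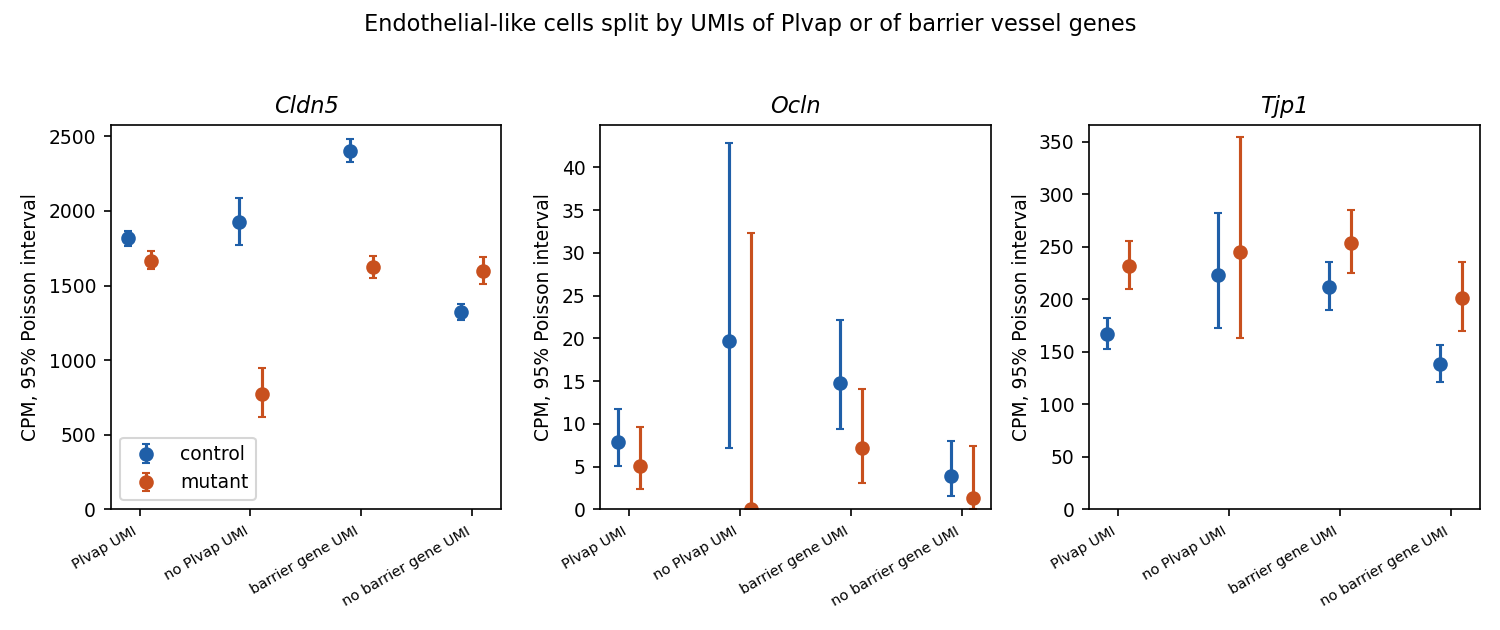
CPM of Cldn5, Ocln and Tjp1 with 95% Poisson intervals in endothelial-like cells with and without a UMI of Plvap, and with and without a UMI of 7 barrier vessel genes, for the control and mutant libraries. Cldn5 in control cells stands at 2405 CPM with and 1323 CPM without a barrier gene UMI. In mutant cells it stands at 1623 CPM with and 1600 CPM without one. The split takes different cells in each library.

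The barrier vessel genes themselves differed between libraries in endothelial-like cells. Of the 16 genes 13 were tested, and 5 were called lower and 1 higher (38.5% and 7.69%, against 3.58% and 1.98% of all genes tested in the class). Mfsd2a stood at 35.2 CPM in control and 4.26 CPM in mutant cells (log2 ratio -2.78, interval -4.29 to -2.02). Foxq1, a transcription factor gene of brain and retinal vessels, stood at 39.1 and 7.99 CPM (-2.16). Slc7a5 (-1.36), the Wnt effector Lef1 (-0.97) and Foxf2 (-0.82) were also lower, and the organic anion carrier Slco1a4 was higher (1.38). Plvap stood at 1181 and 1268 CPM (0.10). Summed RPE markers in endothelial-like cells were 268 CPM in control and 46.9 CPM in mutant cells, and Mfsd2a, Slc7a5 and Slco1a4 were also detected in RPE-like cells. The part of such transcripts in these values was not tested. Of the wider tight junction list 21 genes were tested here, with Lsr, a component of tricellular junctions, called lower (23.3 to 7.45 CPM, -1.52) and Amotl2 called higher (49.2 to 85.7 CPM, 0.79).

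The surface epithelium was compared next. It is an outer layer that does not come from the eye field, and the cornea had been removed before dissociation. The class joined a cluster led by Krt14 and Trp63 (101 control and 37 mutant cells) and a cluster led by Krt6a and Krt13 (34 and 30 cells). Of the 5 members tested, Cldn3 was called higher and Cldn5 lower, against 3.84% of 8095 genes called higher and 4.56% called lower.

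Cldn3 (ENSMUSG00000070473, chr5:134986214-134987472, plus strand) gave 204 UMIs in 135 control cells and 336 UMIs in 67 mutant cells. The level was 163 CPM (142 to 187) and 402 CPM (360 to 447), a log2 ratio of 1.30 with an interval from 1.05 to 1.56. Nearly all of it came from the Krt6a and Krt13 cluster, with 197 and 332 UMIs, up to 32 and 55 of them in 1 cell. That cluster made up 34 of 135 control and 30 of 67 mutant cells, and inside it Cldn3 stood at 396 and 711 CPM, a log2 ratio of 0.84 (0.59 to 1.11). In the Krt14 and Trp63 cluster it was at 9.29 and 10.8 CPM. By sex of the cells, Cldn3 was at 120 CPM with Xist and 188 CPM with a Y-linked UMI in the control, and at 450 and 107 CPM in the mutant. The last value rests on 5 cells, and among cells with a Y-linked UMI the log2 ratio had the opposite sign, -0.81 (interval -1.90 to 0.11). An antisense gene, Wbscr25, overlaps Cldn3, and the sources used here do not state the strand setting of the counting.

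Cldn5 gave 42 UMIs in control and 0 in mutant surface epithelium-like cells, at least 9.36-fold lower with 3 counts as the upper limit for the mutant library and the control level taken as measured. The counting interval of the log2 ratio, which takes in the error of both libraries, ends at -2.86. The 42 UMIs came from 15 cells, and 22 of them from 1 cell. Endothelial markers summed to 140 CPM in control and 47.8 CPM in mutant cells of the class, where Cdh5, Flt1, Tie1, Tek, Emcn and Robo4 were at 0. Haemoglobin and other red blood markers summed to 12159 and 84.9 CPM. The part of these transcripts in the Cldn5 value was not tested. Cldn1 (102 and 118 CPM, log2 ratio 0.21, interval -0.18 to 0.60), Ocln (20.8 and 29.9 CPM) and Tjp1 (39.2 and 34.7 CPM) had intervals that included no difference. Cldn2 had 0 UMIs in both libraries, and Cldn10 (2 and 0 UMIs), Cldn12 (5 and 3) and Cldn19 (1 and 0) were too sparse to compare.

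Of the wider tight junction list 30 genes were tested in surface epithelium-like cells, with 0 called lower and 5 higher (16.7%, against 3.84% of all genes tested in the class). All 5 were named after their values were seen. They were the claudin genes Cldn4 (88.0 to 264 CPM, log2 ratio 1.58), Cldn7 (111 to 203 CPM, 0.87) and Cldn23 (14.4 to 94.5 CPM, 2.63), with Prkcz (1.55) and Amotl2 (0.64). The median log2 ratio of the list was 0.23, against -0.01 over all genes tested. The larger share of the Krt6a and Krt13 cluster in the mutant stands beside these values, and its part in them was not tested.

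**Figure D4:**
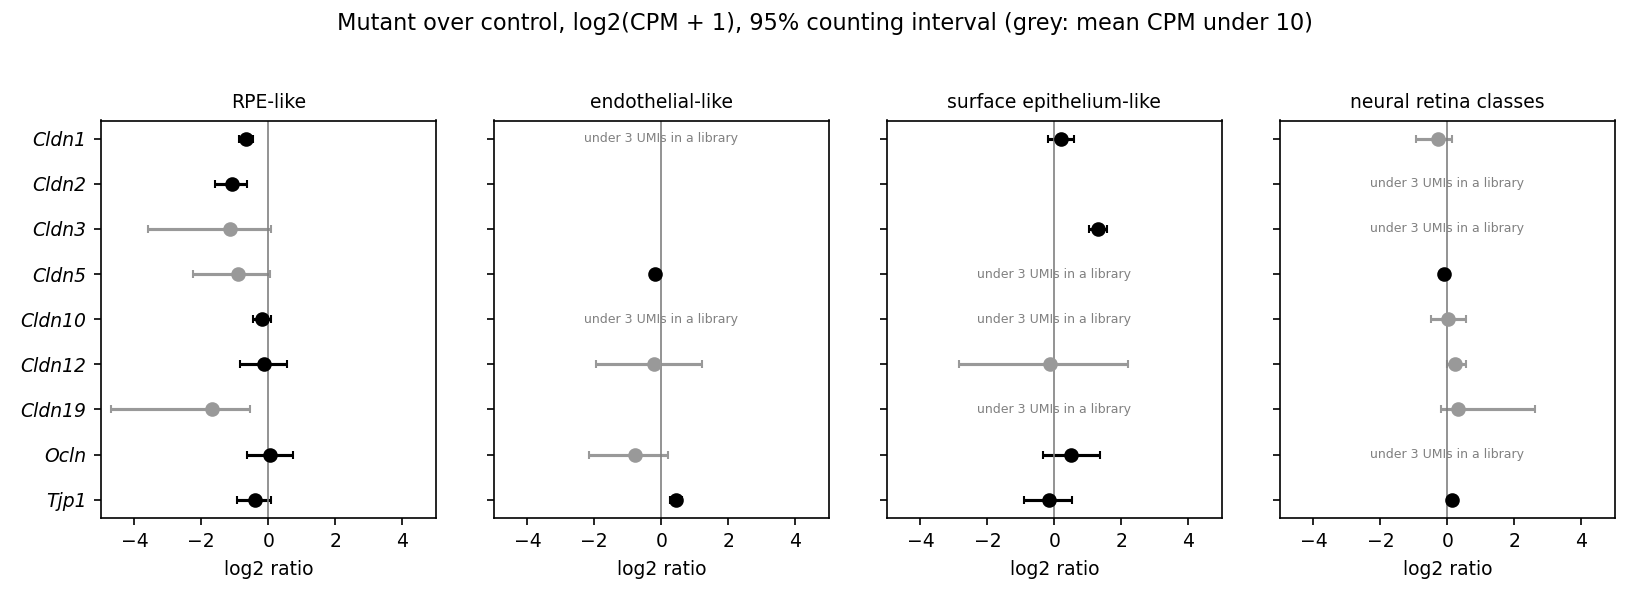
Log2 ratio of mutant over control for each tight junction gene in 4 settings (RPE-like, endothelial-like, surface epithelium-like cells and the neural retina classes), on log2(CPM + 1) with 95% counting intervals. Grey points have a mean under 10 CPM, genes under 3 UMIs in a library carry that note, and genes with 0 UMIs in both libraries are blank. Cldn1 and Cldn2 lie below 0 in RPE-like cells, and Cldn3 lies above 0 in surface epithelium-like cells.

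The neural retina is not known for tight junctions between its neurons, and it served as the comparison in which Rx>cre also acts. Here Cldn5 and Tjp1 were tested and 0 members were called, against 0.603% of 8956 genes called lower and 0.402% called higher. Tjp1 gave 1367 and 1855 UMIs, at 48.6 CPM in control and 53.2 CPM in mutant cells, a log2 ratio of 0.13. Cldn5 gave 2276 and 2643 UMIs, at 81.0 and 75.8 CPM, a log2 ratio of -0.09. The other 7 members were at 7.51 CPM or less in both libraries. Their UMIs were 175 and 262 for Cldn12, 62 and 58 for Cldn1, and 58 and 74 for Cldn10. Cldn2 (9 and 1), Cldn3 (2 and 8), Cldn19 (7 and 19) and Ocln (1 and 2) had few UMIs.

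Most of the Cldn5 in the neural retina came from amacrine-like cells, with 1855 UMIs in 726 control cells and 2227 UMIs in 962 mutant cells. Within that class it was uneven. The cluster with Ptf1a and Prdm13 among its leading genes, transcription factors of early amacrine and horizontal cells, stood at 1081 CPM in control and 1030 CPM in mutant cells. A second cluster, in which Nhlh2 and Eomes were among the leading genes, stood at 469 and 405 CPM, and the last, with C1ql2 and Glra2, stood at 20.1 and 14.7 CPM. The same order was found in both libraries. Outside the amacrine-like class, neurogenic-like cells of the Atoh7 cluster had Cldn5 at 87.2 and 81.0 CPM.

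Cldn5 was also compared with photoreceptor-like cells, which should lack it. After thinning to 1000 UMIs, Cldn5 was in 25.2% of control and 22.0% of mutant amacrine-like cells, and in 58.8% and 58.2% of endothelial-like cells. In photoreceptor-like cells it was in 0.912% and 0.522%. Median depths before thinning were 5000 and 5446 UMIs in amacrine-like and 2900 and 3269 UMIs in photoreceptor-like cells. Single amacrine-like cells held up to 30 UMIs in the control and up to 39 in the mutant. Summed endothelial markers in the class were 44.6 and 38.5 CPM, against 9725 and 10895 CPM in endothelial-like cells. Between genotypes, Cldn5 in amacrine-like cells had a log2 ratio of -0.23 (interval -0.32 to -0.14), short of 1.5-fold. In the Ptf1a and Prdm13 cluster the ratio was -0.07 (-0.18 to 0.04).

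**Figure D5:**
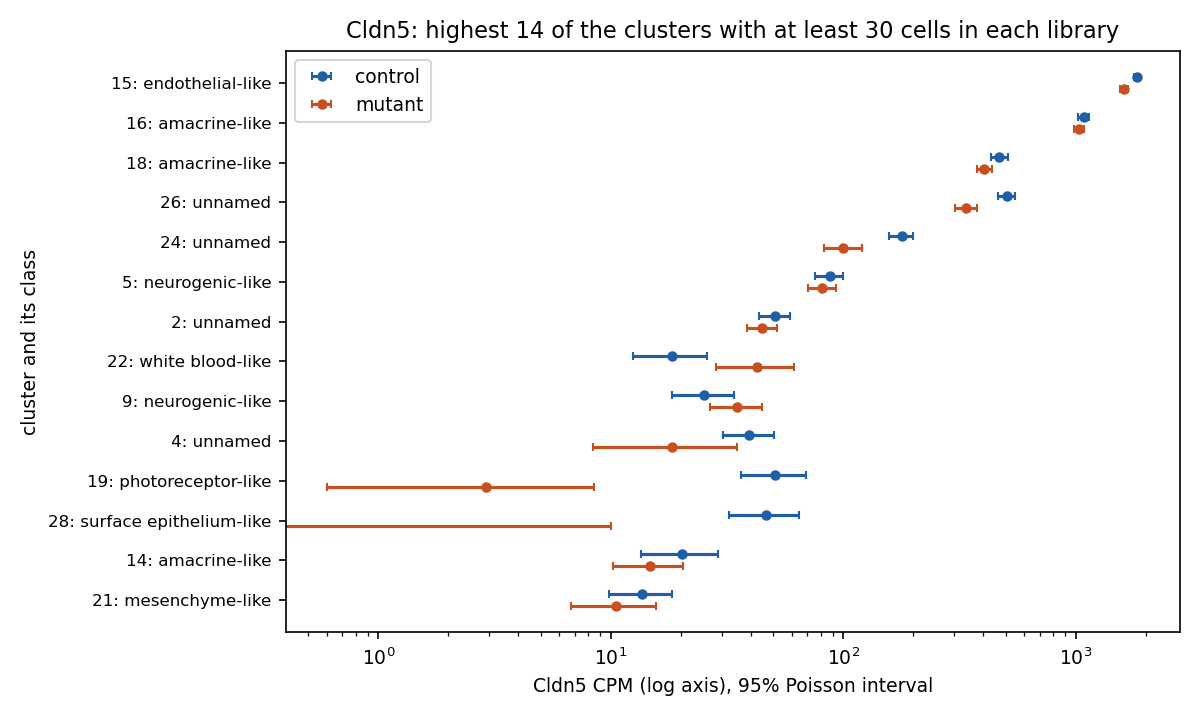
Cldn5 CPM on a log axis with 95% Poisson intervals in the 14 clusters with the highest mean level among clusters of at least 30 cells in each library, labelled by cluster number and class, for control and mutant. The endothelial-like cluster leads at 1826 and 1613 CPM and the first amacrine-like cluster follows at 1081 and 1030 CPM (the mutant point of surface epithelium-like cluster 28 is at 0 and falls off the log axis).

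Across classes, the genes whose level followed each member most closely were taken by Pearson correlation of log2(CPM + 1) over 23 class sums of 12 classes. These points share 2 libraries and differ in depth, so the values describe these data only. Cldn2 was closest to Klk4, Ak8 and Pon1 (r = 0.97 for each). Cldn1 was closest to Gsta4 (0.94), Cldn10 to Gria3 (0.93), Cldn3 to Duoxa1 (0.96) and Cldn5 to Arhgef15 (0.91), an exchange factor gene of endothelium. Class sums of under 50 cells were left out, among them astrocyte-like cells, the leading class of Cldn19. Over the remaining sums Cldn19 was closest to Slc6a20a (0.89) and next to Myrf (0.87). In the astrocyte-like cells left out, Myrf had 1 UMI in the control and 0 in the mutant. Tjp1 was closest to Git1 (0.93), Ocln to Arhgef28 (0.90) and Cldn12 to Fuz (0.87).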

How the data were processed

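Eye cups without cornea, lens and optic nerve were dissociated, and per the labels and methods the authors made 10x Genomics 3′ libraries and counted their UMIs with Cell Ranger against mm10 (GRCm38). The deposited matrices hold whole-number UMI counts that were not normalized, restricted to barcodes taken as cells. The version in the matrix headers differs from that in the methods (7.1.0 there), and the gene annotation behind the counts is not given in the sources used here. Cells are not assigned to animals or to cell types in the files.

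A barcode needed at least 200 genes and no more than 15% mitochondrial UMIs. The upper limit of 2000 UMIs that the methods state was an alternative only, because 80.2% of control and 92.1% of mutant barcodes exceed it. Scrublet in scanpy 1.11.5 removed 1646 control and 1214 mutant barcodes at an expected rate of 0.8% per 1000 cells, because its own threshold marked 0% of control barcodes. Clustering used Seurat 5.3.0 in R 4.3.3 (2000 variable genes, anchor integration, 30 components, resolution 1), without 104 genes (members, both lists, Myrf, sex-linked genes, and RPE and melanocyte markers). It gave 37 clusters, of which 9 stayed unnamed (30.0% of control and 23.2% of mutant cells), and 15 named classes. A marker counted where 10% of cells held it at 2 times the level of other clusters. The neural retina is the union of the progenitor, neurogenic, photoreceptor and amacrine classes.

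Within a library, the UMIs of each class were added up. The log2 ratio divides mutant by control after adding 1 CPM to both. Intervals of levels are exact Poisson, of shares exact Clopper-Pearson, and of ratios exact conditional Poisson without the added CPM. They cover counting error only. The calling procedure was tested on simulated data. Gene positions are from GENCODE M21 by identifier, and upstream sequences from RefSeq (GRCm38.p6), where all 9 members matched. Members and lists were chosen with earlier results of these data known. All 9 members were named in the 4 compared settings. In endothelial-like cells every called gene of the wider tight junction list and of the barrier vessel list was named. In RPE-like cells most called genes of the wider tight junction list were named. Some items of these lists are counted but not reported here by name. The 3 genes most like each member were taken by Pearson correlation. Alternatives changed the clustering, filters, depth, scaling and cells taken.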

Additional observations from a re-analysis of the deposited data

Results flagged for a closer look

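Cldn19 was set apart because its ratio had opposite signs in different classes. The log2 ratio was -1.67 in RPE-like cells (20 and 3 UMIs, but 1.25 among those with Xist), 1.42 in astrocyte-like cells (9 UMIs in 31 control cells and 37 UMIs in 33 mutant cells) and 0.65 in retinal progenitor-like cells (3 and 17 UMIs). An antisense gene, Gm12927, overlaps Cldn19. Cldn5 did the same, with log2 ratios of -1.64 in photoreceptor-like cells (54 and 20 UMIs, 22 of the former in 1 cell), -5.11 in surface epithelium-like cells (42 and 0 UMIs) and 1.18 in white blood-like cells (31 and 28 UMIs). These differences between classes were not tested.

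Levels in clusters that took no name were outside the comparisons. Cldn10 was at 326 CPM (control) and 325 CPM (mutant) in a cluster of 161 and 115 cells led by Lypd1, Hsd11b1, Cnn1 and Myh11, above its level in every named class. Tjp1 stood at 113.8 and 114.4 CPM in the same cluster. Cldn5 stood at 504 CPM (control) and 338 CPM (mutant) in an unnamed cluster of 102 and 103 cells led by Slc1a6, Igfbpl1 and Calb2.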

How the results depend on the processing

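Over 21 alternatives, 32 results for a gene in a class gave 560 values, of which 466 lay within the counting interval of the value reported and 93 outside it. In 1 more a called result changed sign. Values that were not called changed sign more often. Cldn1 in RPE-like cells ranged from -1.15 (at most 5% mitochondrial UMIs) to -0.51 and was negative in 19 of 19 alternatives, as was Cldn2, from -5.16 to -0.96. The number of members called lower in RPE-like cells (2) became 0 among cells of at most 2000 UMIs and 0 among cells of up to 4000. It became 1 after thinning, where the call was Cldn5, and 1 among cells with a Y-linked UMI, where it was Cldn2. The number called higher there (0) became 1 in cells of at most 2000 UMIs, 1 in cells of up to 4000 and 1 with the mean of per-cell CPM, each time Cldn12. The median over members (-0.66) was -0.42 with cells gated by marker UMIs, -0.40 over 8000 UMIs, -1.64 up to 4000 UMIs and -0.23 in cells with Xist. In endothelial-like cells the number called higher (0) became 1 in cells with Xist, where Tjp1 had a log2 ratio of 1.08. Cldn10 in RPE-like cells ranged from -0.61 to 0.62 and kept its sign in 16 of 19 alternatives, Cldn12 in 14 of 19, Ocln in 13 of 19 and Cldn19 in 16 of 18 (up to 1.25, in cells with Xist). Cldn5 in endothelial-like cells ranged from -0.55 to 0.52 and kept its sign in 14 of 18 alternatives, and Tjp1 ranged from -0.47 to 1.08 and kept it in 16 of 18. Cldn3 in surface epithelium-like cells changed direction, to -0.81, among cells with a Y-linked UMI. Leaving out RPE-like cells with keratinocyte transcripts, an alternative chosen after seeing the data, gave -0.64 for Cldn1 and -1.11 for Cldn2. The causes were not tested. Few UMIs remain in shallow and thinned cells, which limits what those settings can show. No paired analysis was possible because each genotype has 1 library.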
